A study of Mus musculus with 12 samples.

Results

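The 9 genes described here are general pluripotency factors of the mouse embryo and of embryonic stem cells: Pou5f1, Sox2, Sall4, Utf1, Lin28a, Dppa2, Dppa4, Dppa5a and Zfp281. They were taken by symbol from the deposited count table, in which all 9 were found among 25897 gene symbols, and all 9 were among the 14185 genes that passed the filter on low counts. RNA was taken from mouse embryonic stem cells of the line E14tg2a (background strain 129SV), and every group carried a cRAF-ERT2 construct, a RAF kinase fused to a hormone-binding domain that 4-hydroxytamoxifen (4OHT) switches on, which activates ERK. The groups were untreated cells and cells after 1, 2 and 4 h of 250 nM 4OHT, each with 3 libraries from clones a, b and c, so 12 libraries in all. Serum, LIF and 2 µM Chir99021 were in the growth medium of all groups. For the 24 h ahead of treatment the Chir99021 was replaced by the FGF receptor inhibitor PD173074 at 250 nM, and 5 mM ethynyl uridine was given 15 min before harvest. The treatment protocol in the labels names only 0 h and 2 h, while the titles and design give all 4 times. The samples include no vehicle control, so the ligand and its carrier cannot be told apart from activation of the kinase.

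Pluripotent cells are held in their state by a small set of transcription factors. OCT4, encoded by Pou5f1, and SOX2 bind DNA side by side at composite octamer and SOX motifs in the enhancers of many stem cell genes. Around this pair stand factors kept through both the naive state and the later, formative state of the epiblast, and ERK signalling is known to drive exit from the naive state. Some of the 9 act on DNA and chromatin (Sall4, Utf1, Dppa2, Dppa4, Zfp281), and others bind RNA (Lin28a, Dppa5a).

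Total counts were 24213641 to 31435301 per library, which puts 1 count at 0.0318 to 0.0413 CPM (counts scaled to the library's total; all CPM levels below are also TMM-scaled), and the 9 genes together held 0.360 to 0.429% of all counts. Genes known as immediate targets of ERK were higher in the treated cells: of 6 such genes, 5 were called higher at 1 h and 6 at 2 h and at 4 h, and their summed level was 165 to 198 CPM in untreated libraries and 663 to 1838 CPM in treated ones. Calls are from edgeR's quasi-likelihood test without a term for the clone, at a Benjamini-Hochberg adjusted p of 0.05 over all genes tested. The clone pairs the libraries. Results of a fit with clone as a block (the blocked fit) are given for the 9 factors where they change a call. For the gene lists they are given in part. These are bulk libraries, in which fewer cells expressing a gene and less RNA per cell cannot be told apart.

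Markers of other cell types moved with time in part, where 18% of all genes tested were called higher and 15.1% lower at 4 h. Of trophoblast markers, 3 of 6 tested were called higher at 4 h (Cdx2, Eomes and Krt18), and the summed level went from 45.3 to 50.4 CPM in untreated libraries to 60.5 to 152 CPM. Krt8, Tfap2c and Ascl2 were not called, with group means of 10.9, 21.8 and 1.13 CPM untreated and 13.7, 16.3 and 0.635 CPM at 4 h. Elf5 and Hand1 had 32 and 51 counts over all 12 libraries and were not tested. Of primitive streak and mesoderm markers, 3 of 5 tested were called higher and none lower, with sums of 5.64 to 6.97 CPM untreated and 21.6 to 39.7 CPM at 4 h. Eomes is in both this list and the trophoblast list and is counted in each. Neural markers had 1 of 4 tested higher (Nes, group means 29.4 and 74.0 CPM) and 2 lower. Those lower were Sox1 (3.63 and 1.00 CPM) and Map2 (13.7 and 7.15 CPM), and Pax6 was not called (5.01 and 14.0 CPM). The sums of 46.5 to 57.0 and 76.4 to 119 CPM were mostly Nes, and Tubb3 and Neurog2 had 0 counts. Feeder fibroblast markers had 2 of 3 tested higher, Thy1 (group means 3.42 and 17.0 CPM) and Col1a1 (0.326 and 0.816 CPM). The sums of 164 to 291 and 287 to 564 CPM were mostly Vim (205 and 387 CPM), which was not called (edgeR adjusted p 0.0604). The defining genes Postn, Lum and Dcn had 1, 4 and 8 counts over all 12 libraries. Of 8 primitive endoderm markers tested, none was called without the block, and the sums were 7.72 to 16.3 CPM untreated and 6.45 to 14.4 CPM at 4 h. In the blocked fit the 4 h calls higher and lower were 4 and 1 for trophoblast and 3 and 0 for streak and mesoderm markers. They were 3 and 0 for feeder, 2 and 2 for neural and 1 and 2 for primitive endoderm markers. That fit called 26.2% of all genes higher and 25.7% lower at 4 h. At 2 h Cdx2 (log2 change 5.57 ± 1.06, edgeR adjusted p 0.0106) and the streak gene Evx1 (2.57 ± 0.40, adjusted p 0.00574) were called higher and the trophoblast gene Ascl2 lower (−2.01 ± 0.53, adjusted p 0.0295), where 9.56% of all genes tested were called higher and 6.64% lower. Group means of Cdx2, Evx1 and Ascl2 were low, 0.0321, 1.03 and 1.13 CPM untreated and 1.84, 6.05 and 0.279 CPM at 2 h. Untreated Cdx2 was near the level of 1 count, so the size of its log2 change is uncertain. No other marker of these 5 lists was called at 2 h, and none at 1 h, without the block. At 1 h the blocked fit called 1 streak and mesoderm marker higher, where it called 5.41% of all genes higher. In the blocked fit the 2 h calls higher and lower were 3 and 2 of 6 for trophoblast, 3 and 0 of 5 for streak and mesoderm, 2 and 0 of 3 for feeder, 0 and 2 of 4 for neural and 1 and 2 of 8 for primitive endoderm markers. The part of these cell types in the levels of the 9 factors was not tested.

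The factors were abundant transcripts, and their levels per kilobase of exon spanned a wide range. RPKM values (CPM divided by exon length in kilobases), as mean ± SD over the 12 libraries, were highest for Dppa5a at 985 ± 143, followed by Pou5f1 at 423 ± 72.1, Lin28a at 226 ± 23.0 and Sox2 at 194 ± 21.4. Lower levels were found for Sall4 at 88.0 ± 7.57, Dppa4 at 65.2 ± 16.4, Zfp281 at 57.2 ± 10.6, Utf1 at 34.0 ± 15.6 and Dppa2 at 25.1 ± 5.26 RPKM. In this order, the ranges over the 12 libraries of neighbouring genes did not overlap between Dppa5a and Pou5f1, between Pou5f1 and Lin28a, and between Sox2 and Sall4. All other neighbours overlapped. Dppa5a stood at percentile 99.9 and Dppa2 at percentile 84.2 of the 14038 tested genes with a known exon length.

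**Figure D1:**
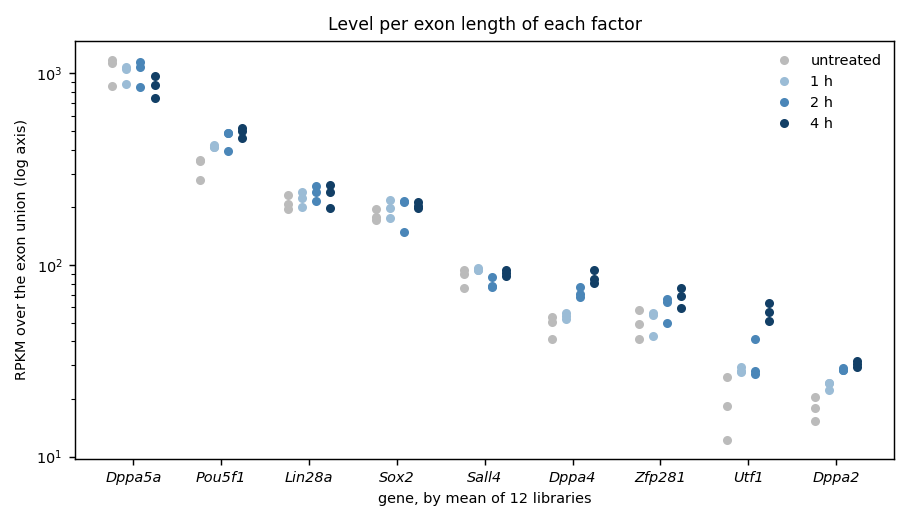
Levels of the 9 factors per kilobase of exon (RPKM, log scale), with 1 point for each of the 12 libraries. Dppa5a lies above every other factor, and Dppa2 and Utf1 have the lowest means, 25.1 and 34.0 RPKM.

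All 9 are protein-coding genes, with positions from GENCODE M21 on GRCm38. Pou5f1 lies at chr17:35506018-35510772 on the plus strand, Sox2 at chr3:34650405-34652461 (plus) and Sall4 at chr2:168748332-168767943 (minus). Utf1 lies at chr7:139943789-139945112 (plus), Lin28a at chr4:134003330-134018841 (minus), Dppa5a at chr9:78367052-78368177 (minus) and Zfp281 at chr1:136624901-136630053 (plus). Dppa4 (chr16:48283733-48294237) and Dppa2 (chr16:48303908-48319723) are neighbours on the plus strand, 9.67 kb apart. Sox2 has a single exon and sits inside the noncoding gene Sox2ot without sharing exon bases. Pou5f1, Sall4 and Lin28a share 317, 526 and 234 exon bases with genes on the opposite strand (Gm19553, Gm14261 and Gm13061). Since the strand setting of the counting is not given in the sources used here, these 3 totals are uncertain by whatever those genes add.

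The DPPA genes have close copies elsewhere in the genome, so their counts are uncertain in another way. Dppa2 matched 6 processed pseudogenes, the closest with 99.3% identity over 906 bases, and Dppa4 matched 2, the closest with 99.4% over 532 bases. Dppa5a matched 10 transcripts, among them its relatives Dppa5b and Dppa5c with 96.3% identity over 299 bases, and Pigp with 95.9% over 417 bases. Reads from such stretches may have been lost or shared.

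Sequence ahead of the start site is shown for both core factors and for Utf1, the factor with the largest fold change, because the first is a called gene, the second is its binding partner that was not called, and the third is a gene bound by both in embryonic stem cells. The sequences are from RefSeq (GRCm38.p6), run 5′ to 3′ on the gene's strand and end before the annotated start, and capitals mark motif matches.

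Pou5f1, chr17:35505782-35506017, plus strand: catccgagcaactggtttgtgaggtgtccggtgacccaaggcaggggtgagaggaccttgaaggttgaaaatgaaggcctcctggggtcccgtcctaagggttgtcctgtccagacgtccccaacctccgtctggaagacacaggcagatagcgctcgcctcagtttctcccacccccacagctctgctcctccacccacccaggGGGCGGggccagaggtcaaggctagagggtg

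Sox2, chr3:34649745-34649994, plus strand: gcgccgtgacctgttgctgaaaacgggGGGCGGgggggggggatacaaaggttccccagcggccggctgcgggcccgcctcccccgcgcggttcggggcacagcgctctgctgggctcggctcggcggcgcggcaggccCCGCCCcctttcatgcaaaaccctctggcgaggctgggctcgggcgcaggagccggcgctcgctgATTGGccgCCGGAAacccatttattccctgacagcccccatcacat

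Utf1, chr7:139943606-139943788, plus strand: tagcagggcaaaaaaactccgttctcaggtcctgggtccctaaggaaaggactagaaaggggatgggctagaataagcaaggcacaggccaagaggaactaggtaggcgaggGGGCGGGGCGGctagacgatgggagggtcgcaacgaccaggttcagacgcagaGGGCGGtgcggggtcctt

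The 250 bases before each RefSeq start were searched on both strands for 8 motifs: the GC box GGGCGG, the CCAAT box with the letters CCAAT, the TATA box TATAAA, the octamer ATGCAAAT, the SOX motif CATTGTT, the ETS motif CCGGAA, the AP-1 motif TGANTCA and the EGR motif GTGGGCG. GC boxes were the shared feature of all 3 sequences: 1 at Pou5f1 (positions −45 to −40 from the start), 2 at Sox2 and 4 at Utf1, of which 2 overlap each other by 1 base and 1 lies beyond the printed stretch. Positions are counted from the RefSeq start, for Pou5f1 the first of 2 start sites. A GC box is common, found in 32.7% of the 32851 RefSeq promoters. Sox2 also held CCAAT (33.8% of promoters) at −46 and the ETS motif (12.03%) at −38, both printed above, and Pou5f1 held CCAAT from −12 to −8, beyond its printed stretch. The EGR motif (7.02% of promoters) was matched at Utf1 from −58 to −52, beyond the printed stretch and overlapping a GC box there. None of TATAAA (12.4% of promoters), the octamer (1.60%), the SOX motif (3.29%) and the AP-1 motif (6.75%) was matched in these 3 windows, which says only that those letters are not in them. At the second RefSeq start of Pou5f1, which lies within the gene, the window held CCAAT from −168 to −164 and the SOX motif from −159 to −153. Zfp281 held 4 GC boxes and 1 CCAAT, and Lin28a matched none of the 8 motifs. Promoters of Sall4, Dppa2, Dppa4 and Dppa5a were not used here.

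At 4 h of 4OHT, 5 of the 9 factors rose and none was called lower. Utf1 rose the most, 3.03-fold, followed by Dppa4 at 1.79-fold, Dppa2 at 1.71-fold, Pou5f1 at 1.51-fold and Zfp281 at 1.38-fold. Sox2, Sall4, Lin28a and Dppa5a did not pass the test. Among all genes tested, 33.1% were called at 4 h, 18% higher and 15.1% lower, and the median log2 change was 0.47 over the 9 factors and −0.02 over all genes tested. The blocked fit called 6 factors higher, Lin28a being the added one, and 1 lower, Dppa5a, where it called 26.2% of all genes higher and 25.7% lower. For 6 factors (Pou5f1, Sox2, Utf1, Dppa2, Dppa4 and Zfp281) all 4 h libraries lay above all untreated ones, as for 22.8% of all genes. For Sox2 and Zfp281 this held only with the TMM scaling.

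**Figure D2:**
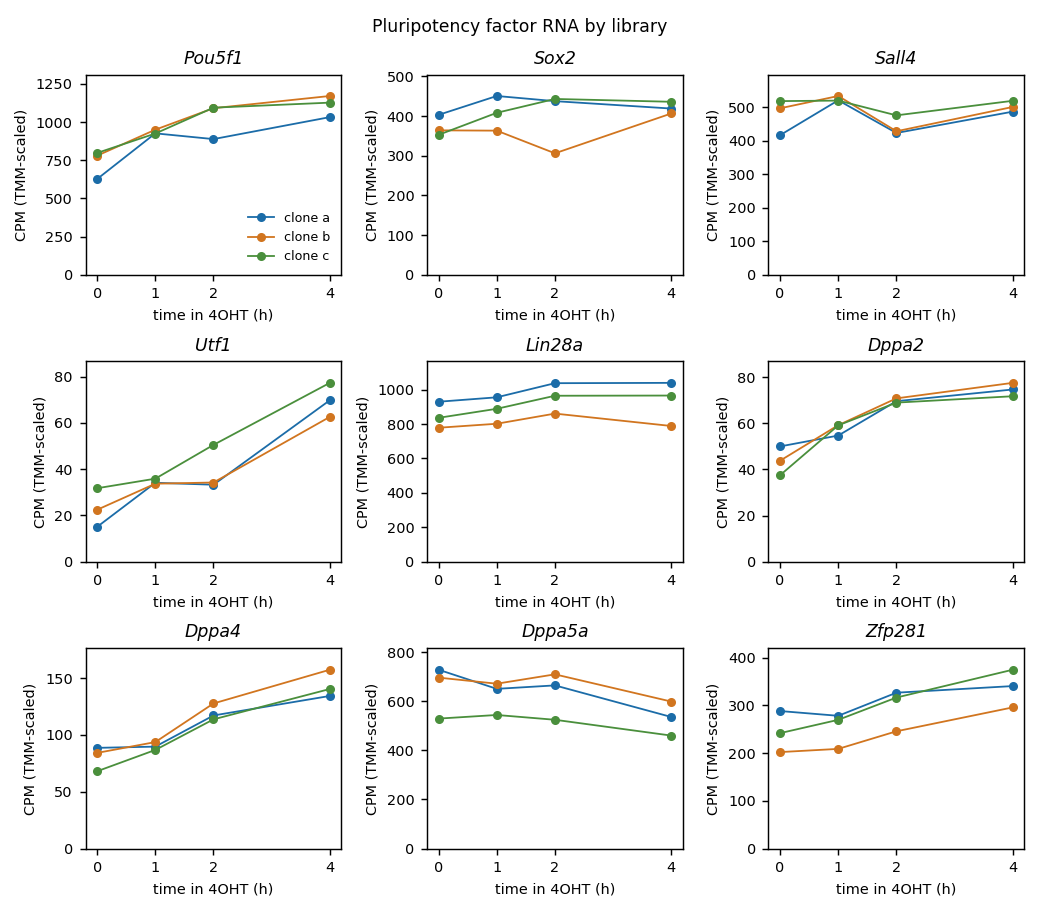
TMM-scaled CPM of each factor in the 12 libraries, by hours of 4OHT, with a point per clone and a panel per gene. Utf1, Dppa2, Dppa4 and Pou5f1 lie above all untreated libraries at both 2 and 4 h, while the libraries of Lin28a and Dppa5a overlap across times.

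Of the core pair, Pou5f1 rose and Sox2 did not pass the test at any time. Pou5f1 encodes OCT4, the POU-family factor without which the inner cell mass is not pluripotent, and an excess as well as a loss of it makes stem cells differentiate. In untreated clones a, b and c Pou5f1 stood at 627, 780.1 and 798 CPM, at 1 h at 926, 950.3 and 925 CPM, at 2 h at 889, 1091 and 1094 CPM and at 4 h at 1033, 1171 and 1127 CPM. Every treated library was above every untreated one, and clone a was the lowest clone in untreated cells. Group means ± SD (n = 3) were 735 ± 93.9 CPM untreated, 934 ± 14.2 at 1 h, 1025 ± 118 at 2 h and 1110.3 ± 70.8 at 4 h. The edgeR log2 change was 0.35 ± 0.10 (SE) at 1 h (adjusted p 0.290), 0.48 ± 0.10 at 2 h (adjusted p 0.0165) and 0.60 ± 0.10 at 4 h (adjusted p 0.0019). In the blocked fit the edgeR adjusted p at 1 h was 0.0145, so the 1 h call depends on the block. Leaving out clone b or clone c, at 2 h or altogether, ended the 2 h call, and the 4 h call was lost when clone c was left out altogether, where the adjusted p was 0.0513 (range over 21 alternatives 7.13e-06 to 0.0513).

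Sox2 encodes the HMG-box partner of OCT4 and is also a factor of neural progenitors. Its values in clones a, b and c were 403, 364 and 353 CPM untreated, 451, 363 and 408 CPM at 1 h, 438, 306 and 443 CPM at 2 h and 419, 407 and 436 CPM at 4 h. The 4 h libraries all lay just above the untreated ones, and clone b at 2 h was the lowest of the 12. The edgeR log2 change was 0.13 ± 0.13 at 1 h (adjusted p 0.777), 0.08 ± 0.13 at 2 h (adjusted p 0.674) and 0.17 ± 0.13 at 4 h (adjusted p 0.325), so no change was detected against the spread of the clones.

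Sall4 encodes a zinc finger factor that binds OCT4 and recruits the NuRD deacetylase complex. It stood at 417, 498 and 519 CPM untreated, 521, 534 and 521 CPM at 1 h, 424, 429 and 476 CPM at 2 h and 488, 502 and 519.9 CPM at 4 h. The 1 h libraries were all above the untreated ones, and the 2 h libraries were all below the 1 h ones. Against untreated cells the edgeR log2 change was 0.14 ± 0.08 at 1 h (adjusted p 0.562), −0.11 ± 0.08 at 2 h (adjusted p 0.361) and 0.07 ± 0.08 at 4 h (adjusted p 0.509). From 1 to 2 h it was −0.25 ± 0.08, with an edgeR adjusted p of 0.187 and, with clone as a block, 0.028.

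Utf1 had the largest fold change of the 9. It encodes a chromatin-bound factor of undifferentiated cells that limits binding of a Polycomb complex at bivalent promoters and is a known target of OCT4 and SOX2 through an enhancer behind the gene. In clones a, b and c it was at 15.1, 22.5 and 31.8 CPM untreated, 34.1, 33.7 and 35.9 CPM at 1 h, 33.3, 34.2 and 50.5 CPM at 2 h and 69.8, 62.6 and 77.3 CPM at 4 h. All treated libraries were above all untreated ones, the 4 h libraries were above all others, and clone c was the highest at each time. The group means ± SD (n = 3) were 23.1 ± 8.37, 34.6 ± 1.16, 39.3 ± 9.68 and 69.9 ± 7.36 CPM. The edgeR log2 change was 0.58 ± 0.23 at 1 h (adjusted p 0.368), 0.77 ± 0.23 at 2 h (adjusted p 0.0443) and 1.60 ± 0.23 at 4 h (adjusted p 0.000737), and 492 of the genes tested had a larger rise at 4 h. At 1 h the blocked edgeR adjusted p was 0.0393. The 2 h call was lost in 12 of 21 alternatives (adjusted p 0.00314 to 0.238): with scaling to library totals, on leaving out any 1 clone, and on leaving out 1 library, namely untreated a or b, any at 1 h, b or c at 2 h, or c at 4 h. The 4 h call was kept in all 21.

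The size of the Utf1 change differed between clones. The log2 change at 4 h was 2.21 in clone a, 1.48 in clone b and 1.28 in clone c, in the reverse order of the untreated levels. At 1 h the changes were 1.18, 0.59 and 0.18, in the same order, while at 2 h they were 1.14, 0.61 and 0.67, with clone b the lowest. For Pou5f1 the changes were 0.56, 0.28 and 0.21 at 1 h, 0.50, 0.48 and 0.46 at 2 h and 0.72, 0.59 and 0.50 at 4 h. Since the untreated library enters both the level and the change, these orders are given as a description.

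Dppa2 and Dppa4 both rose at 2 h and at 4 h. The neighbouring genes encode SAP-domain proteins that bind DNA, form a heterodimer and keep developmental genes and genes of the two-cell embryo open to activation. Dppa2 was at 49.9, 43.8 and 37.5 CPM untreated, 54.7, 59.1 and 59.1 CPM at 1 h, 69.5, 70.8 and 68.9 CPM at 2 h and 74.6, 77.5 and 71.7 CPM at 4 h. Each group lay above all libraries of the group before it in time, and clone c was the lowest in untreated cells. Its edgeR log2 change was 0.40 ± 0.09 at 1 h (adjusted p 0.257), 0.67 ± 0.09 at 2 h (adjusted p 0.00355) and 0.77 ± 0.09 at 4 h (adjusted p 0.000294). The blocked fit gave an edgeR adjusted p of 0.0194 at 1 h. From 1 to 2 h the edgeR log2 change of Dppa2 was 0.28 ± 0.09 (adjusted p 0.195, blocked 0.0516). From 2 to 4 h it was 0.10 ± 0.09 (adjusted p 0.611, blocked 0.437). Neither step between these treated times passed the test, although the libraries did not overlap.

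Dppa4 was at 88.6, 84.1 and 68.0 CPM untreated, 89.6, 93.6 and 86.7 CPM at 1 h, 117, 128 and 114 CPM at 2 h and 134, 157 and 140.3 CPM at 4 h. The 1 h libraries overlapped the untreated ones, and all 2 h and 4 h libraries were above both. Its edgeR log2 change was 0.17 ± 0.10 at 1 h (adjusted p 0.566), 0.57 ± 0.10 at 2 h (adjusted p 0.00828) and 0.84 ± 0.10 at 4 h (adjusted p 0.000255). At 4 h the change was smallest in clone a for both genes, 0.58 for Dppa2 and 0.60 for Dppa4, and largest in clone c, 0.93 and 1.04. This is the reverse order of the untreated levels. Since the untreated library enters both the level and the change, the order is given as a description. The 2 h calls of both genes were lost without clone b or without clone c, while the 4 h calls were kept in all 21 alternatives.

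The genes of the two-cell embryo that the pair is known to act on were barely detected. Of 17 listed DPPA family and two-cell genes, 15 were in the table, 5 had 0 counts in all libraries and 14 had under 100 counts over the 12 libraries. Only Dppa3, a maternal factor also known as Stella, was tested, and its log2 change at 4 h was −0.33 ± 0.41 (edgeR adjusted p 0.561). The blocked fit called Dppa3 lower at 4 h, beside 25.7% of all genes. The summed level of the list was 3.98 to 9.01 CPM in untreated libraries and 3.60 to 7.18 CPM at 4 h. Most of it was Dppa3, with group means of 6.67 and 5.31 CPM, so the sum says little of the rest. A change of the rest was not detectable at these counts, and the cause of the low counts was not tested.

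Neither RNA-binding factor passed the test without the block, and each kept part of its clone order at all times. Lin28a encodes a protein that blocks maturation of let-7 microRNAs and binds many messenger RNAs. It was at 929, 778 and 836 CPM untreated, 955, 802 and 888 CPM at 1 h, 1037, 861 and 964 CPM at 2 h and 1039, 788 and 965 CPM at 4 h. Clone a was the highest and clone b the lowest at each of the 4 times, and the groups overlapped. The edgeR log2 change was 0.06 ± 0.11 at 1 h (adjusted p 0.909), 0.17 ± 0.11 at 2 h (adjusted p 0.314) and 0.13 ± 0.11 at 4 h (adjusted p 0.387). The blocked edgeR fit called it higher, with an adjusted p of 0.0198 at 2 h and 0.0473 at 4 h.

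Dppa5a encodes a small KH-domain protein, also known as ESG1, whose RNA is abundant in stem cells. It was at 729, 697 and 529.6 CPM untreated, 651, 672 and 544 CPM at 1 h, 665, 710.0 and 525 CPM at 2 h and 536, 599 and 460.4 CPM at 4 h. Clone c was the lowest at each of the 4 times, and each clone was lower at 4 h than untreated. The log2 change at 4 h was −0.44, −0.22 and −0.20 in clones a, b and c, and −0.29 ± 0.15 in the edgeR fit (adjusted p 0.154). The blocked edgeR fit called it lower at 4 h, with an adjusted p of 0.00127. At 1 h and 2 h its log2 changes were −0.07 ± 0.15 (edgeR adjusted p 0.921) and −0.04 ± 0.15 (adjusted p 0.868).

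Zfp281 passed the test at 4 h and not at 1 or 2 h. It encodes a zinc finger factor that restrains Nanog and takes part in the passage from naive to primed pluripotency together with TET1. Its values were 288, 202 and 242 CPM untreated, 278, 209 and 269.9 CPM at 1 h, 327, 246 and 317 CPM at 2 h and 341, 296 and 375 CPM at 4 h. Clone b was the lowest at each time, and at 4 h all 3 libraries were above the untreated ones. The edgeR log2 change was 0.05 ± 0.16 at 1 h (adjusted p 0.953), 0.28 ± 0.16 at 2 h (adjusted p 0.230) and 0.47 ± 0.16 at 4 h (adjusted p 0.0404). It was also called at 2 h in the blocked edgeR fit (adjusted p 0.00614). Without the block the 4 h call was lost in 8 of 21 alternatives (adjusted p 0.000143 to 0.321): with scaling to library totals, on leaving out clone c, and on leaving out 1 library, namely untreated b or c, c at 1 h or 2 h, or a or c at 4 h.

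**Figure D3:**
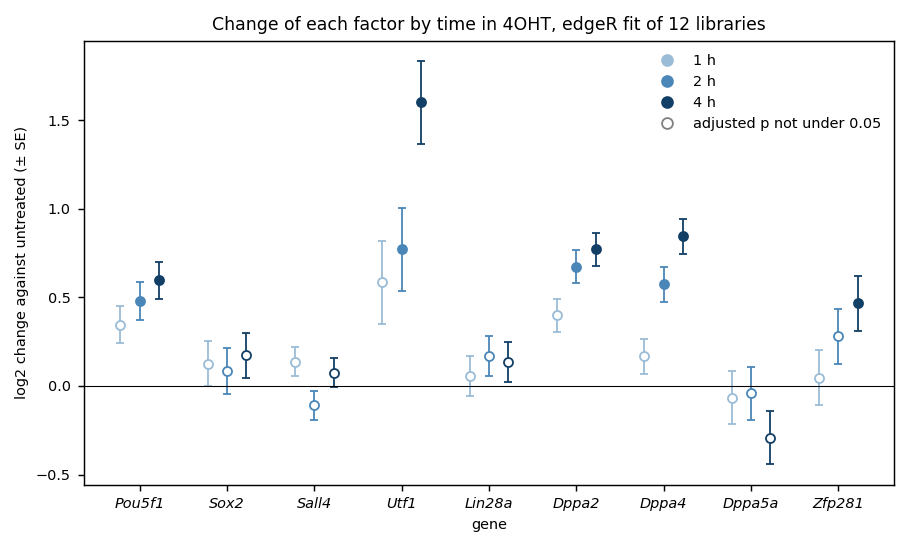
Log2 change of each factor against untreated cells at 1, 2 and 4 h of 4OHT, as edgeR estimates with their standard errors. Utf1 reaches 1.60 at 4 h, Dppa5a is the only factor below 0 at 4 h, and the highest values of Sox2 and Lin28a are both 0.17.

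At 1 h none of the 9 was called, where 0.0775% of all genes tested were. At an unadjusted p under 0.05 edgeR counted 3 of the 9 and 1630 of all genes, DESeq2 called 1 factor at its adjusted threshold and limma-voom 0. The blocked fit called Pou5f1, Utf1 and Dppa2 higher, where it called 5.41% of all genes higher. The CPM values of treated and untreated libraries did not overlap for 4 factors at 1 h, all higher (Pou5f1, Sall4, Utf1 and Dppa2), a pattern that 10.9% of all genes tested showed. Such shares of all genes are given against untreated cells only, and not for separations between treated times.

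At 2 h Pou5f1, Utf1, Dppa2 and Dppa4 were called higher and none lower, where 16.2% of all genes tested were called, 9.56% higher and 6.64% lower. The median log2 change was 0.28 over the 9 factors and −0.02 over all genes tested. The blocked fit called 6 higher, Lin28a and Zfp281 being added, where it called 20.6% of all genes higher. The libraries of the 4 called factors did not overlap with the untreated ones, a pattern that 19.1% of all genes showed in that direction. All 4 calls were lost without clone b and without clone c, fits in which 97 genes and 1 gene were called in all.

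Between treated times, 3 factors were higher at 4 h than at 1 h. From 1 to 4 h Utf1 rose by a log2 change of 1.02 ± 0.23 (edgeR adjusted p 0.0108), Dppa4 by 0.68 ± 0.10 (adjusted p 0.00124) and Dppa2 by 0.37 ± 0.09 (adjusted p 0.0171), where 19.6% of all genes were called, 10.8% higher and 8.74% lower. All 3 calls were lost without clone c, those of Utf1 and Dppa2 also without clone b, and that of Dppa2 also without the 1 h library of clone a or the 4 h library of clone b. The blocked edgeR fit called 5 higher and Dppa5a lower (adjusted p 0.0071), where it called 20% and 19.8% of all genes, and those called higher included Zfp281 (adjusted p 0.0831 without and 0.000496 with the block) and Pou5f1 (0.115 and 0.0136).

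From 1 to 2 h and from 2 to 4 h none of the 9 passed the test without the block, where 0.0634% and 4.68% of all genes tested were called. In each of these comparisons 3 of the 9 had an unadjusted p under 0.05 in edgeR, and 2291 and 2941 of all genes did. DESeq2 called 1 factor in each, and limma-voom called 0 and 1. The blocked fit called 2 higher and 1 lower in each, where it called 7.13% of all genes higher and 5.46% lower from 1 to 2 h and 12% and 9.98% from 2 to 4 h. Those higher from 1 to 2 h were Dppa4 (edgeR adjusted p 0.115 without and 0.00862 with the block) and Zfp281 (0.489 and 0.0406). Those lower were Sall4 from 1 to 2 h (edgeR adjusted p 0.028) and Dppa5a from 2 to 4 h (adjusted p 0.00975). Utf1 had an adjusted p of 0.0623 without and 0.00343 with the block from 2 to 4 h, and Dppa4 0.143 and 0.0225.

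Taking the 3 treated times in a single edgeR F test, 4 of the 9 were called, where 27.4% of all genes were. These were Dppa4 (adjusted p 0.000669), Dppa2 (0.000963), Utf1 (0.00324) and Pou5f1 (0.00882). Without clone b 2 were called and without clone c none, and the block called 8 where it called 56.8% of all genes.

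The choice of scaling bears on the smaller changes. TMM factors were 1.04 to 1.07 in untreated libraries and 0.938 to 1.04 in treated ones, and scaling to library totals alone shifted the median log2 change of all genes by −0.10 at 1 h, −0.12 at 2 h and −0.11 at 4 h. Under that scaling Utf1 at 2 h and Zfp281 at 4 h were not called, and Dppa5a was called lower at 4 h. Some separations of treated from untreated libraries also depended on the TMM scaling. With CPM on library totals alone, Utf1 and Sall4 at 1 h, Utf1 at 2 h, and Sox2 and Zfp281 at 4 h overlapped the untreated libraries.

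Across the 12 libraries, the factors fell into patterns of their own. Over the 36 pairs of factors, Pearson's r of log2 CPM ranged from −0.75 for Utf1 with Dppa5a to 0.93 for Dppa2 with Dppa4, with a median of 0.28, and Pou5f1 with Utf1 gave 0.89. The points share 3 clones and 4 times, so r describes these libraries and carries no test. By the same measure, the 3 genes most like each factor were taken from 8394 genes with a mean of at least 10 CPM. D8Ertd738e (0.997), Ptk7 (0.993) and Sart1 (0.993) were most like Pou5f1, and Ccdc124 (0.984), Ifrd2 (0.983) and Pold2 (0.982) most like Utf1. Mkrn1 (0.990), Tmem57 (0.980) and Kcnh8 (0.979) came closest to Dppa4, and Ercc6 (0.942), Fubp3 (0.942) and Cks1b (0.940) to Dppa2.

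The other factors had their own neighbours. For Zfp281 these were Slc38a4 (0.978), Sms (0.976) and Nifk (0.953), and for Dppa5a they were Rpl39 (0.981), Enah (0.968) and Grm8 (0.964). Lin28a had Mylpf (0.929), Irgm1 (0.919) and Skp2 (0.911), and Sall4 had Zmiz2 (0.928), Cc2d1a (0.898) and its relative Sall1 (0.898). The weakest likeness was that of Sox2, with Skp2 (0.820), Pigv (0.797) and Fzd7 (0.794).

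Genes linked to the 9 by family or pathway moved in both directions at 4 h, where 18% of all genes tested were called higher and 15.1% lower. Of 15 other POU and SOX genes, 5 rose and 2 fell (median log2 change 0.18). Pou3f1, known as OCT6 and a factor of the formative epiblast, rose by 3.27 ± 0.41 (log2, edgeR adjusted p 0.000347), Sox13 rose by 1.91 ± 0.27 and Sox4 by 1.84 ± 0.22. Sox1, a neural factor, had a log2 change of −1.87 ± 0.42 (edgeR adjusted p 0.00686).

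Of 10 genes known as targets of OCT4 and SOX2, none rose and 6 fell at 4 h (median log2 change −0.43), while Pou5f1 itself rose. Nanog, the homeodomain factor of the naive state, went from 699 ± 38.4 CPM to 282 ± 36.3 CPM, a log2 change of −1.31 ± 0.13 (edgeR adjusted p 0.000126). Fgf4, the growth factor gene with a well-known OCT4 and SOX2 enhancer, changed by −1.39 ± 0.16, Fbxo15 by −1.06 ± 0.11 and Spp1 by −0.38 ± 0.06. In the blocked fit 2 were called higher and 8 lower, where it called 26.2% and 25.7% of all genes. Utf1, a target of the same pair, is counted among the 9 and not in this list.

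Of 14 SALL relatives and subunits of NuRD, the deacetylase and remodelling complex that SALL4 recruits, 4 rose and none fell (median log2 change 0.00). They were the remodeller Chd4 at 0.52 ± 0.10, from 859 ± 14.7 to 1233 ± 167 CPM, Gatad2a at 0.50 ± 0.12, Mta2 at 0.34 ± 0.10 and the histone-binding Rbbp7 at 0.32 ± 0.07. Of 13 genes of the LIN28 and let-7 pathway, 3 rose and 1 fell (median 0.12). Hmga2, a let-7 target encoding a chromatin protein, rose by 1.84 ± 0.33, Trim71, an RNA-binding let-7 target, by 0.82 ± 0.18 and Igf2bp1, an RNA-binding protein gene, by 0.58 ± 0.13. Igf2bp3 had a log2 change of −0.20 ± 0.06. The blocked fit called 4 higher and 2 lower of the 14 SALL and NuRD genes. Of the 13 LIN28 and let-7 genes it called 6 higher and 3 lower, beside 26.2% and 25.7% of all genes.

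Of 8 genes made up of the Zfp281 relative Zfp148 and DNA methylation enzymes, 2 rose and 1 fell (median 0.18). These were the de novo methyltransferase Dnmt3a at 1.37 ± 0.20, its cofactor Dnmt3l at 0.71 ± 0.19 and the demethylating dioxygenase Tet1 at −0.36 ± 0.12. The blocked fit called 5 higher and 1 lower, beside the same 26.2% and 25.7% of all genes.

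Of 15 naive pluripotency factors, 3 rose and 7 fell (median log2 change −0.60; the list shares Nanog, Fgf4, Zfp42 and Dppa3 with the target list). The summed level of the 15 was 5041 to 5967 CPM untreated and 3468 to 4246 CPM at 4 h, and these ranges did not overlap. Nr0b1, encoding DAX1, rose by 1.25 ± 0.09 and Gbx2 by 2.67 ± 0.27. Of 17 other genes of the general stem cell state, 2 rose and 4 fell (median 0.02), among them the Wnt repressor Tcf7l1 at −0.53 ± 0.10 and Tex10 at 0.42 ± 0.08. Fbxo15 and Tdgf1 are in both this list and the target list. The blocked fit called 5 naive factors higher and 9 lower at 4 h, and 6 and 5 of the 17 others. It called 26.2% of all genes higher and 25.7% lower. At 1 h no gene of these lists was called without the block. The blocked fit called 2 targets, 1 SALL or NuRD gene, 2 DNA methylation genes, 3 naive factors and 1 of the others higher at 1 h. None was called lower, and it called 5.41% of all genes higher. At 2 h, where 9.56% of all genes tested were called higher and 6.64% lower, the calls higher and lower were 3 and 0 of 15 for POU and SOX relatives, 1 and 2 of 10 for targets, 4 and 0 of 14 for NuRD, 1 and 0 of 13 for LIN28, 1 and 1 of 8 for DNA methylation, 4 and 3 of 15 for naive factors and 2 and 1 of 17 for the others. In the blocked fit the 2 h calls were 4 and 6 for POU and SOX relatives, 1 and 4 for targets and 4 and 2 for NuRD. They were 4 and 1 for LIN28, 5 and 1 for DNA methylation, 5 and 5 for naive factors and 6 and 2 for the others. That fit called 20.6% of all genes higher at 2 h and 5754 genes in either direction.

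**Figure D4:**
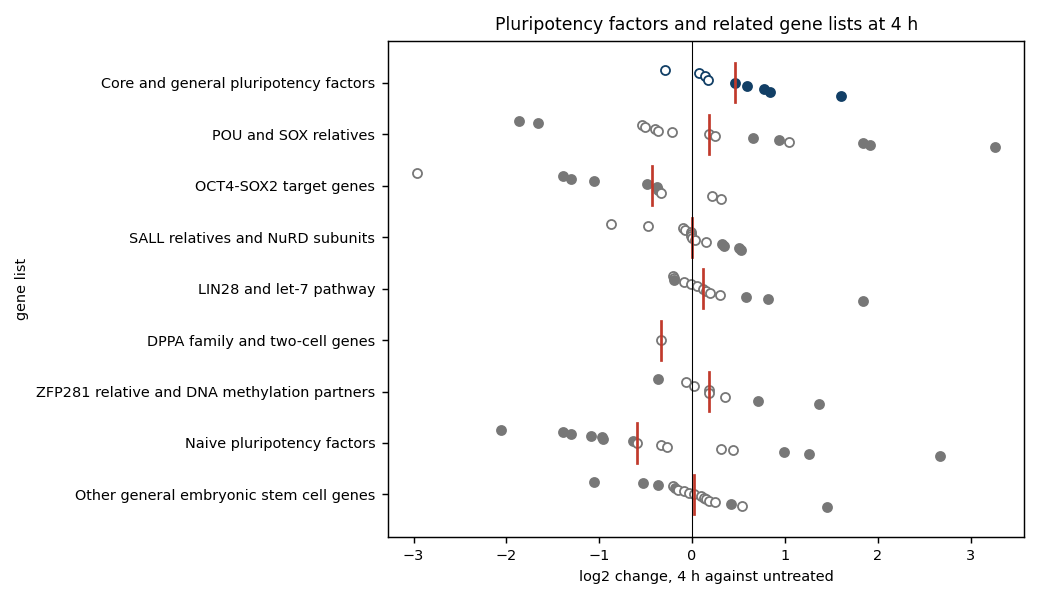
Log2 change at 4 h against untreated cells of the 9 factors and of the genes in each related list, 1 point per gene, with calls at an edgeR adjusted p under 0.05 filled and the list median as a red line. The factors' median is 0.47, the naive list's is −0.60, and the targets of OCT4 and SOX2 reach below −1 with Nanog, Fgf4 and Fbxo15.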

How the data were processed

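The values are raw read counts by gene symbol, deposited by the authors as a single table of 12 library columns. STAR, featureCounts, DESeq and the mm10 build are named in the submitters' processing notes. No source used here gives their versions, the gene annotation, strandedness or the handling of multi-mapping reads. Total RNA was depleted of ribosomal RNA before NEB Next Ultra 2 library preparation, per the labels' protocols.

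Counts were tested with edgeR 4.0.16 (limma 3.58.1, R 4.3.3). Genes were kept by filterByExpr (minimum count 10, minimum total 15), scaled by TMM and fitted over all 12 libraries with 1 term per group (8 residual degrees of freedom). Tests were 2-sided, with Benjamini-Hochberg adjustment over 14185 genes and a threshold of 0.05. The SE is the log2 change divided by the root of F, and is approximate. CPM is TMM-scaled and RPKM uses GENCODE M21 exon lengths. Alternatives were RLE factors, no filter, DESeq2 1.42.0, limma-voom, the clone block, leaving out each library or clone, and, chosen after seeing the data, library totals without TMM. The fit was tested on simulated data.

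The labels give the same clone letter at all times, and libraries of 1 clone deviated together from their group means in 18 of 18 pairs (r 0.18 to 0.68), unlike the 36 pairs of different clones (r −0.57 to −0.02). Deviations from a group mean cancel within the group. The negative r of different clones therefore follows in part from the positive r within clones. No library was a copy of another (within groups, chi-square over its degrees of freedom was 19.9 to 111). Nothing in the labels says more of how the clones were derived or cultured, so all p-values are about these 3 clones only. Without the block they measure the spread between the clones within groups, with the libraries of a clone at different times treated as independent. In the blocked fit they measure the spread that is left after the mean shift of each clone is removed.

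The 9 genes and all lists, which are from textbook knowledge, were chosen with earlier results of these data known. Named were all 9 factors, up to 4 genes per list by smallest p, and the 3 genes most like each factor, leaving out symbols starting Gm or ending Rik.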

Additional observations from a re-analysis of the deposited data

Results flagged for a closer look

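For 3 of the 9 factors the effect at 4 h differed from that at 1 h by the test of 4 h against 1 h in edgeR: Utf1 with a log2 difference of 1.02 (adjusted p 0.0108), Dppa4 with 0.68 (adjusted p 0.00124) and Dppa2 with 0.37 (adjusted p 0.0171). Each was higher at 4 h than at 1 h in 3 of 3 clones. These are the libraries that gave the calls, so the clones add no separate support. Of all genes tested, 10.8% were called higher in that comparison.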

How the results depend on the processing

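Counts of called factors moved with the clone. With clone as a replicate block 3 were called at 1 h, 3 from 1 to 2 h, 3 from 2 to 4 h, 6 from 1 to 4 h and 8 over all treated times. DESeq2 called 1 at 1 h, 1 from 1 to 2 h and 1 from 2 to 4 h, and limma-voom 1 from 2 to 4 h. Leaving out a library or clone gave 0 to 4 at 2 h, 3 to 5 at 4 h, 0 to 1 from 2 to 4 h, 0 to 4 from 1 to 4 h and 0 to 5 over all times. Over 54 comparisons of a factor, 13 changed sign under some alternative, and none of these was called. Without TMM factors these were Lin28a at −0.043 and Zfp281 at −0.053 at 1 h, Sox2 at −0.035 at 2 h and Sall4 at −0.036 at 4 h. That scaling shifted the median log2 change of all genes by −0.10 at 1 h, −0.12 at 2 h and −0.11 at 4 h. The cause of the sign changes was not tested. Leave-out ranges that cross 0 were, at 1 h, −0.20 to 0.023 for Dppa5a, −0.0095 to 0.13 for Lin28a and −0.071 to 0.18 for Zfp281; at 2 h, −0.17 to 0.077 for Dppa5a and −0.044 to 0.23 for Sox2; at 4 h, −0.017 to 0.14 for Sall4; from 1 to 2 h, −0.070 to 0.14 for Dppa5a, −0.13 to 0.11 for Sox2 and −0.036 to 0.30 for Utf1; from 2 to 4 h, −0.12 to 0.074 for Lin28a and −0.063 to 0.18 for Sox2; from 1 to 4 h, −0.0087 to 0.19 for Lin28a and −0.028 to 0.13 for Sox2. Genes called at 1 h numbered 11, with 992 under the block, 130 by DESeq2 and 6 by limma-voom. At 2 h they numbered 2298 and 5754 under the block, at 4 h 4691 and 7374, from 1 to 2 h 9 and 1785 (573 by DESeq2, 43 without the filter, 41 without TMM factors, 0 by limma-voom), from 2 to 4 h 664 and 3115 (1395 by DESeq2), from 1 to 4 h 2775 and 5641, and over all times 3886 and 8054. Without clone c, 1 gene was called at 2 h and 919 at 4 h. Fits without a clone have fewer libraries.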
